A study of Mus musculus with 12 samples.

Results

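The genes described here are 37 genes of glycolysis and of the transcriptional response to low oxygen, measured in mouse kidneys with and without ischemia-reperfusion injury. They were matched to the arrays by gene name, from a list drawn up with earlier results of these data known, and comprise 17 glycolytic enzymes, 6 transporters and pyruvate dehydrogenase kinases, 4 genes of the hypoxia-inducible factor (HIF) system and 10 further hypoxia targets. Of the 37, 36 were among the 25947 genes tested. Erythropoietin (Epo), the hormone that drives red cell production, was not tested because its 2 probes were well above background on 0 of 12 arrays.

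RNA from 12 kidney samples of male mice on a C57/6J background was hybridised to one-colour Agilent arrays, in 4 groups of 3: Jaml knockout (KO) 24 h after ischemia-reperfusion injury (KO IRI), Jaml KO after sham surgery (KO sham), wild type 24 h after IRI (WT IRI) and wild type after sham surgery (WT sham). In IRI the renal blood supply is shut off and then reopened. The clamp time is 40 min in one deposited text and 30 min in another, and this was not settled. Jaml encodes an adhesion molecule of leukocytes, and the labels name neither the allele nor the cells in which it is lost, nor the age of the mice. The series text calls the 3 samples of a group independent, but does not say that each came from its own mouse, so p-values measure the spread between these samples.

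Every level below is the log2 processed signal of a gene's brightest kept probe minus the 75th percentile of its array, and is compared only with the same probe on other arrays. Tests are from limma, fitted across all genes with n = 3 per group, two-sided, and p-values were adjusted over all 25947 genes by Benjamini-Hochberg, with a threshold of 0.05. Errors after ± are standard errors of log2 fold changes. All 6 KO arrays lie on one slide and scan and all 6 WT arrays on another, so KO and WT cannot be told apart from slide. IRI against sham was compared within a slide. In whole kidney, fewer cells of a type and less RNA per cell cannot be told apart.

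Glycolysis splits glucose to pyruvate and yields ATP without oxygen. Hexokinase traps glucose in the cell, phosphofructokinase sets the pace, and lactate dehydrogenase turns pyruvate into lactate so that the pathway can go on. HIF is a transcription factor whose alpha subunits are hydroxylated by the Egln enzymes when oxygen is present, and are then degraded. When oxygen falls, the alpha subunits persist and switch on glucose uptake, glycolytic enzymes, lactate export and blood vessel growth. The proximal tubule, which makes up most of the renal cortex, normally burns fatty acids in its mitochondria and uses little glucose for energy.

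The probes of the 10 members called in some comparison lie, on mm9 as the files give it, at chr6:82675056-82675115 on the minus strand for Hk2, chr13:6580589-6580648 minus for Pfkp, chr9:108934652-108934711 plus for Pfkfb4, chr4:118809864-118809923 plus for Slc2a1 and chr11:120820023-120820082 plus for Slc16a3. Those of the others lie at chrX:91009951-91010010 minus for Pdk3, chr12:75047819-75047878 plus for Hif1a, chr8:127432510-127432569 minus for Egln1, chr4:43526518-43526577 plus for Car9 and chr11:53945032-53945091 plus for P4ha2. Which exon or untranslated region each probe reads was not analysed here.

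The 36 probes used were well above background on all 12 arrays, where 62.9% to 68.1% of all probes reached that mark, and no probe was saturated. Jaml read -1.89, -2.70 and -3.0 in KO IRI and -3.54, -2.59 and -3.18 in KO sham kidneys, against 0.55, -1.80 and -1.64 in WT IRI and -0.26, -0.26 and -0.44 in WT sham kidneys. It was lower in KO sham than in WT sham (log2 fold change -2.79 ± 0.55, limma adjusted p = 0.0152) and missed the threshold in KO IRI against WT IRI (-1.57 ± 0.55, adjusted p = 0.153). Whether its probe lies in the deleted part is not given, so these values do not settle the genotype of any library. The injury markers Havcr1 and Lcn2 rose after IRI in both genotypes, Havcr1 by 4.54 ± 1.15 in KO and 4.73 ± 1.15 in WT (adjusted p = 0.0458 and 0.0273) and Lcn2 by 5.64 ± 0.41 in KO and 5.27 ± 0.41 in WT (adjusted p = 0.000354 and 0.000303). Havcr1 was uneven in KO IRI kidneys, at -2.27, -0.70 and 2.92, against -4.56, -4.79 and -4.33 in KO sham kidneys. In WT it read 2.01, 4.16 and 3.78 after IRI and -1.91, -2.38 and 0.04 after sham surgery. KO IRI replicates 1 and 2 thus lay within the range of the WT sham arrays. None of the 14 proximal tubule markers was below background on all arrays of a group. WT IRI replicate 1 stood apart. Among the 36 members it was the highest of the 12 arrays for 10 and the lowest for 11, while no other array was the extreme for more than 14. Over the members its typical distance from the mean of its group (root mean square) was 0.68 log2 units, and that of the 11 remaining arrays 0.11 to 0.51.

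**Figure D1:**
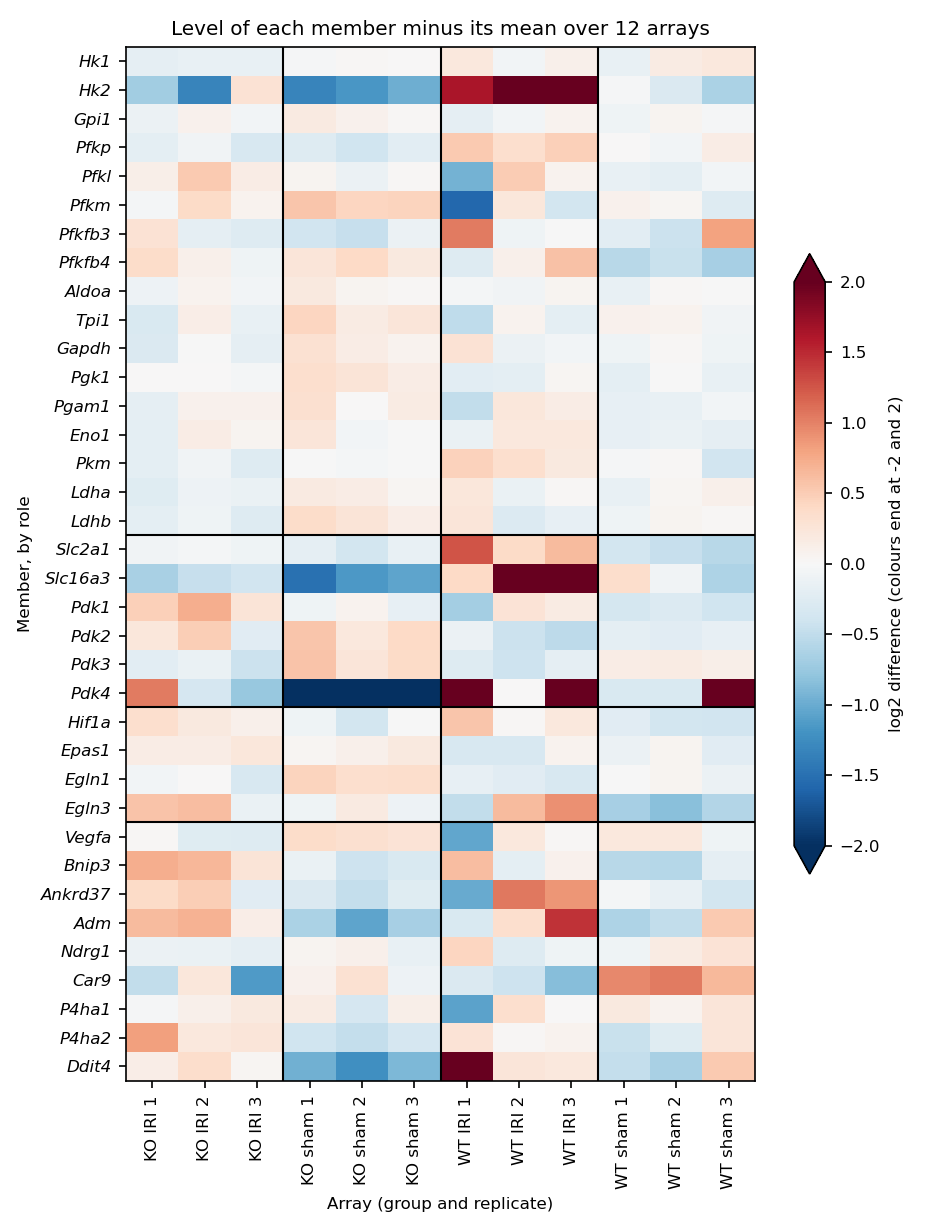
Level of each of the 36 tested members (rows, grouped by role) on each of the 12 arrays (columns), minus the gene's mean over the arrays, in log2 units. Hk2, Slc2a1 and Slc16a3 stand out in the WT IRI columns, the Pdk4 row is low in all 3 KO sham arrays, and the first WT IRI column differs from the other WT IRI columns in many rows.

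In WT kidneys the glucose transporter Slc2a1, the hexokinase Hk2, the lactate exporter Slc16a3, the phosphofructokinase Pfkp and Hif1a rose after IRI, and the carbonic anhydrase Car9 fell. These are 5 of 36 members higher and 1 lower, against 6.08% of all genes tested called higher and 5.90% called lower. The median log2 fold change of the members was 0.09, against -0.01 over all genes. The 30 others, among them every enzyme from aldolase to lactate dehydrogenase, did not pass the test. The count of 6 was 2 without WT sham replicate 1, WT sham replicate 2 or WT IRI replicate 3. Calls over all genes then fell from 3109 to 861, 846 and 1205. The count was 3 without KO sham replicate 1, KO sham replicate 3 or WT sham replicate 3, with 2386, 2189 and 2445 such calls.

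The first steps are the entry and trapping of glucose. Slc2a1, the GLUT1 transporter that carries glucose across the plasma membrane, read 5.02, 4.14 and 4.40 in WT IRI kidneys, against 3.39, 3.31 and 3.21 in WT sham kidneys. Every WT IRI array lay above every WT sham array, and replicate 1 was the highest. The log2 fold change was 1.22 ± 0.19, or 2.32-fold (limma adjusted p = 0.00635), and it was 0.97 without WT IRI replicate 1 (adjusted p = 0.00186). It kept its call without any one array and lost it in a fit on the 6 WT arrays alone (adjusted p = 0.071). Calls over all genes in that fit were 417, against 3109 with all arrays. Hk2, the inducible hexokinase, read -1.74, -0.91 and -1.31 in WT IRI kidneys, against -3.39, -3.66 and -4.00 in WT sham kidneys. The groups were more than a log2 unit apart at their nearest arrays. Hk2 rose 5.14-fold (log2 fold change 2.36 ± 0.36, 95% confidence interval 1.55 to 3.17, adjusted p = 0.00567). This was the largest rise among the members in this comparison, and it kept its call under each of the 22 alternative settings, at 1.63 to 2.57. Of these settings, slide as a block could only repeat the main fit. Hk1, the hexokinase present in most tissues, changed by 0.01 ± 0.12 (adjusted p = 0.98).

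At the phosphofructokinase step 1 of the 3 subunit genes passed the test. Pfkp, the platelet-type subunit, read 3.62, 3.43 and 3.58 in WT IRI kidneys, against 3.11, 3.04 and 3.24 in WT sham kidneys. The groups did not overlap, but the rise was small, at 0.41 ± 0.12 or 1.33-fold (adjusted p = 0.0449). It missed the threshold without any one of 11 of the 12 arrays, all but WT IRI replicate 2, at 0.37 to 0.47. Pfkl, the liver-type subunit, gave 0.01 ± 0.30 and Pfkm, the muscle-type subunit, -0.52 ± 0.36 (-0.02 without WT IRI replicate 1), and neither passed the test. In both, WT IRI replicate 1 read lower than any other array, at 0.55 for Pfkl and 1.32 for Pfkm. Pfkfb3 and Pfkfb4 encode the enzymes that make fructose 2,6-bisphosphate, the activator of phosphofructokinase. Pfkfb4 read 0.10, 0.45 and 0.94 in WT IRI kidneys, against -0.20, -0.09 and -0.31 in WT sham kidneys, a difference of 0.70 ± 0.20 that missed the threshold (adjusted p = 0.0507) and passed it without WT IRI replicate 1 (0.90, adjusted p = 0.0145). Pfkfb3 gave 0.26 ± 0.36, with overlapping groups.

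The 9 enzymes of the reversible steps and of lactate formation, Gpi1, Aldoa, Tpi1, Gapdh, Pgk1, Pgam1, Eno1, Ldha and Ldhb, had log2 fold changes of -0.24 to 0.25 in WT, with 0 of 9 past the test. For the brightest probes, their 95% confidence intervals all lay within 2-fold, 1 on the log2 scale, and reached 0.61 at most. This bound does not hold for every probe, as the 3 kept probes of Eno1 gave 0.25 to 1.01, the highest with an error of 0.35. This set of enzymes was put together after the values were seen, so it has no test. Pkm, pyruvate kinase of most tissues and the last ATP-yielding step, read 5.75, 5.62 and 5.48 in WT IRI kidneys, against 5.27, 5.31 and 4.90 in WT sham kidneys. The groups did not overlap, and the difference of 0.46 ± 0.13 missed the threshold (adjusted p = 0.0507).

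Lactate leaves the cell through Slc16a3, also called MCT4. Its levels were -0.77, 1.53 and 1.24 in WT IRI kidneys, against -0.81, -1.24 and -1.78 in WT sham kidneys. Replicates 2 and 3 of WT IRI were well above the sham arrays, and replicate 1 was barely above the highest of them. Slc16a3 rose by 1.94 ± 0.50 or 3.84-fold (adjusted p = 0.0338), and by 2.66 without WT IRI replicate 1 (adjusted p = 0.000786). The call was lost without any one of 7 other arrays, which were the 3 WT sham arrays, WT IRI replicates 2 and 3 and KO sham replicates 1 and 3, at 1.51 to 2.17. The 4 pyruvate dehydrogenase kinases, which inhibit pyruvate dehydrogenase, did not pass in WT. Pdk1 gave 0.26 ± 0.23 (0.56 and adjusted p = 0.0353 without WT IRI replicate 1), Pdk2 -0.16 ± 0.19 and Pdk3 -0.42 ± 0.13 (adjusted p = 0.0553). Pdk4, the kinase that responds to fasting and fatty acids, spanned 3.33 to 7.26 in WT IRI and 3.01 to 5.94 in WT sham kidneys, so that its difference of 1.46 ± 1.02 lay within the spread.

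Hif1a, the oxygen-labile subunit of HIF-1, read 4.02, 3.49 and 3.67 in WT IRI kidneys, against 3.23, 3.10 and 3.08 in WT sham kidneys. Every WT IRI array was higher, by a small margin, and the rise was 0.59 ± 0.16 or 1.51-fold (adjusted p = 0.0364). It was 0.44 and no longer called without WT IRI replicate 1 (adjusted p = 0.0594), and the call was also lost without WT IRI replicate 3, any WT sham array, KO sham replicate 1 or 3, or KO IRI replicate 2, at up to 0.64. Epas1, the alpha subunit of HIF-2, gave -0.09 ± 0.13, and the hydroxylase Egln1 -0.21 ± 0.12. Egln3, a hydroxylase that is itself a HIF target, read -0.01, 1.12 and 1.4 in WT IRI kidneys, against -0.18, -0.35 and -0.10 in WT sham kidneys. Replicates 2 and 3 carried that difference of 1.05 ± 0.33 (adjusted p = 0.0643), which passed without WT IRI replicate 1 (1.47, adjusted p = 0.00501).

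Of the 9 other hypoxia targets tested, 0 rose and 1 fell in WT. Car9, a membrane carbonic anhydrase and a widely used HIF target, read 1.23, 1.1 and 0.67 in WT IRI kidneys, against 2.48, 2.55 and 2.17 in WT sham kidneys. All WT IRI arrays lay below all WT sham arrays. Car9 fell by 1.4 ± 0.30 on the log2 scale, 2.64-fold (adjusted p = 0.0178), and missed the threshold without WT sham replicate 1 or 2 or WT IRI replicate 3, with log2 fold changes of -1.36 to -1.24. The other 8 targets had log2 fold changes between -0.41 for P4ha1, a subunit of collagen prolyl hydroxylase, and 1.26 for Ddit4, an inhibitor of mTOR signalling. Ddit4 read 6.08 on WT IRI replicate 1 and 3.62 and 3.59 on replicates 2 and 3, against 2.90, 2.73 and 3.90 in WT sham kidneys, and did not pass (adjusted p = 0.18). Bnip3, which marks mitochondria for removal, gave 0.60 ± 0.22 (adjusted p = 0.0966), and 0.79 without WT IRI replicate 2 (adjusted p = 0.0354). Ankrd37 gave 0.50 ± 0.45, and 1.16 without WT IRI replicate 1 (adjusted p = 0.0101). The angiogenic factor Vegfa gave -0.37 ± 0.27, the vasodilator peptide gene Adm 0.69 ± 0.43 and Ndrg1 -0.09 ± 0.18.

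**Figure D2:**
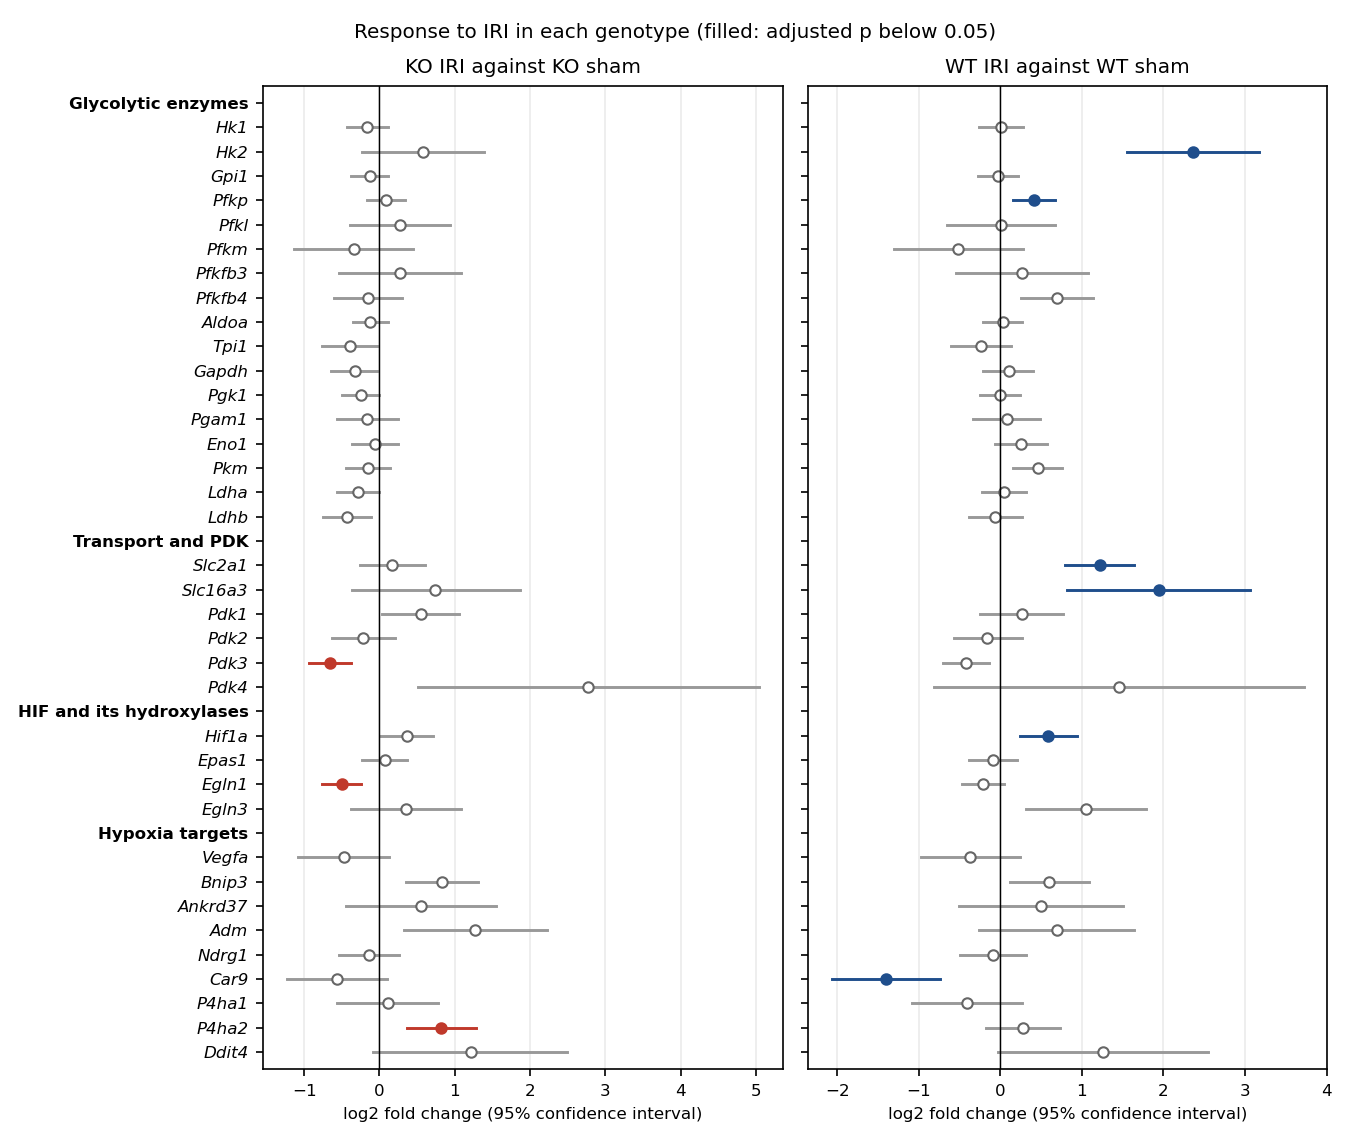
Log2 fold change after IRI (x axis) with its 95% confidence interval for the 36 tested members (y axis, by role), KO IRI against KO sham on the left and WT IRI against WT sham on the right; filled points passed the threshold. In WT, Hk2 (2.36), Slc16a3 (1.94) and Slc2a1 (1.22) lie to the right and Car9 (-1.4) to the left, while in KO the filled points are Pdk3, Egln1 and P4ha2.

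Markers of other cell types moved with these changes in WT. Of 9 neutrophil markers, 7 were higher and 1 was lower, and their summed signal, in multiples of the 75th percentile of the array, was 112 to 123 in WT IRI and 60.5 to 89.9 in WT sham kidneys. Of 7 erythrocyte markers tested, 5 were higher (sums of 86.5 to 156 in WT IRI and 19.9 to 25.0 in WT sham, with Ahsp below background in both groups), and of 8 adipocyte markers 3 were higher (31.5 to 73.2 in WT IRI and 11.3 to 13.9 in WT sham, where Plin1 and Ucp1 were below background). Of 10 T and NK cell markers, 8 were lower (1.97 to 2.80 in WT IRI and 4.35 to 34.5 in WT sham), and of 10 macrophage and monocyte markers 2 were higher and 5 lower (29.4 to 104 in WT IRI and 37.4 to 39.4 in WT sham). Of 8 tubule injury markers 5 were higher, and of 14 proximal tubule markers 5 were lower. Their part in the values of the members was not tested.

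HIF binds DNA at a short core of 5 bases, ACGTG or GCGTG. The upstream stretches of 6 members are printed to show this core beside the values above: Hk2, Slc2a1 and Slc16a3, which rose in WT, Car9, which fell, and Ldha and Pgk1, which did not pass the test. The sequences are from RefSeq on GRCm38.p6 and run 5′ to 3′ on the strand of the gene. Capitals mark ACGTG or GCGTG, or their reverse complements CACGT and CACGC.
Hk2, chr6:82774646-82774704, minus strand: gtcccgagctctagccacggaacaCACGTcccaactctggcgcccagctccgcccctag
Slc2a1, chr4:119108654-119108743, plus strand: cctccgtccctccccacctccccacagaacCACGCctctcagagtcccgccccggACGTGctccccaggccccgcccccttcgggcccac
Slc16a3, chr11:120949010-120949066, plus strand: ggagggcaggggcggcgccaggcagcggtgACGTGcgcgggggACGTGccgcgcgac
Car9, chr4:43506978-43507025, plus strand: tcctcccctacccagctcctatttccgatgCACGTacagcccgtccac
Ldha, chr7:46845629-46845694, plus strand: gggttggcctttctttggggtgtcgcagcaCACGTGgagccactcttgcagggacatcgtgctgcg
Pgk1, chrX:106186920-106187003, plus strand: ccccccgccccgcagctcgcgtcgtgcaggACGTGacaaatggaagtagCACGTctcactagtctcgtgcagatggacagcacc
The first core shown begins 226 bases before the annotated start in Hk2, 61 in Slc2a1, 27 in Slc16a3, 18 in Car9, 145 in Ldha and 150 in Pgk1.

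The core was searched on both strands in the 250 bases before each annotated start, and a palindromic CACGTG holds ACGTG on both strands. RefSeq windows were found for 35 members. Either core lay in 40 of their 49 windows (81.6%), against 38.6% of 32851 windows of all genes. ACGTG lay in 51.0% of the members' windows and in 16.6% of all windows. All 10 members called in some comparison had a core in a window, as did 23 of the 25 others with a window. The core was thus present in members that rose, in Car9, which fell, and in most members that did not pass the test, and such a match describes letters, not binding.

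In KO kidneys P4ha2 rose after IRI and Pdk3 and Egln1 fell, which is 1 of 36 members higher and 2 lower, against 2.10% of all genes called higher and 4.05% called lower. Over all genes, 546 of 1598 calls were higher, and 805 of 1624 under quantile normalization. The median of the members was -0.09 and that of all genes -0.08. The count of 3 was 0 without KO sham replicate 1, KO sham replicate 3 or KO IRI replicate 3. Calls over all genes then fell from 1598 to 454, 510 and 733. The count was 1 without KO sham replicate 2, KO IRI replicate 1 or WT sham replicate 2, with 740, 923 and 1182 such calls. Without WT IRI replicate 1 it was 8, with 3252 calls over all genes.

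P4ha2, a subunit of the collagen prolyl hydroxylase of the endoplasmic reticulum, read 3.63, 3.02 and 3.05 in KO IRI kidneys, against 2.41, 2.34 and 2.48 in KO sham kidneys. Every KO IRI array was higher, and the rise was 0.82 ± 0.21 or 1.77-fold (adjusted p = 0.0433). It fell short of the threshold without any one of 8 arrays, the 6 KO arrays, WT sham replicate 2 and WT IRI replicate 3, at 0.63 to 0.93. Pdk3, a pyruvate dehydrogenase kinase, read 2.28, 2.36 and 2.07 in KO IRI kidneys, against 3.06, 2.74 and 2.88 in KO sham kidneys. The groups did not overlap, and Pdk3 fell by 0.66 ± 0.13 on the log2 scale, 1.58-fold (adjusted p = 0.016). The call was lost without KO sham replicate 1 or 3 or KO IRI replicate 3, with log2 fold changes of -0.67 to -0.57. Egln1, also called PHD2, is the main oxygen-sensing hydroxylase of HIF-1. It read 3.76, 3.82 and 3.50 in KO IRI kidneys, against 4.27, 4.15 and 4.17 in KO sham kidneys. It fell by 0.50 ± 0.12 on the log2 scale, 1.42-fold (adjusted p = 0.0338), and missed the threshold without WT sham replicate 1 or 2, any KO sham array, or KO IRI replicate 1 or 3, with log2 fold changes of -0.54 to -0.41.

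The 6 genes that moved in WT were not called in KO. Hk2 read -4.06, -4.69 and -3.08 in KO IRI kidneys, against -4.68, -4.53 and -4.35 in KO sham kidneys. The groups overlapped and the change was 0.58 ± 0.36 (adjusted p = 0.403), with a 95% confidence interval of -0.23 to 1.39. Slc2a1 read 3.70, 3.72 and 3.68 in KO IRI kidneys, against 3.59, 3.39 and 3.61 in KO sham kidneys. The KO IRI arrays were all slightly higher, by 0.17 ± 0.19 (adjusted p = 0.674, interval -0.26 to 0.60). Slc16a3 read -1.81, -1.63 and -1.55 in KO IRI kidneys, against -2.66, -2.32 and -2.23 in KO sham kidneys, without overlap, at 0.74 ± 0.50 (adjusted p = 0.441). Hif1a read 3.79, 3.66 and 3.57 in KO IRI kidneys, against 3.38, 3.09 and 3.46 in KO sham kidneys, at 0.36 ± 0.16 (adjusted p = 0.217). Pfkp gave 0.09 ± 0.12 with overlapping groups (2.90, 3.03 and 2.77 in KO IRI, against 2.84, 2.70 and 2.89 in KO sham). Car9 gave -0.56 ± 0.30, also with overlap (1.02, 1.74 and 0.38 in KO IRI, against 1.60, 1.82 and 1.41 in KO sham).

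A test of the difference itself, the KO response minus the WT response, called 0 of 36 members in limma, against 0.0694% of all genes. The smallest adjusted p among the members was 0.295, for Slc2a1 (-1.05 ± 0.27), and 5 of 36 members had an unadjusted p below 0.05, beside 9.77% of all genes. The others of these were Hk2 (-1.78 ± 0.51), Pkm (-0.61 ± 0.19), Pfkfb4 (-0.84 ± 0.29) and Gapdh (-0.43 ± 0.19). With arrays weighted by their fit, 4 members and 1353 of all 25947 genes were called, and none was called when any one array was left out. Responses of KO and WT kidneys were therefore not shown to differ for any member at the threshold used.

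Several members missed the threshold in KO by little or with wide spread. Bnip3 read 7.40, 7.34 and 6.92 in KO IRI kidneys, against 6.53, 6.26 and 6.37 in KO sham kidneys. The groups were apart, at 0.83 ± 0.22 or 1.78-fold (adjusted p = 0.0505), and Bnip3 was called in 8 of the 22 alternative settings, among them without WT IRI replicate 1 (adjusted p = 0.0147) or 2 (adjusted p = 0.0345). Pdk4 read 4.36, 2.98 and 2.56 in KO IRI kidneys, against 0.77, -0.03 and 0.85 in KO sham kidneys. All KO IRI arrays were higher, by 2.77 ± 1.02 on average, with an interval of 0.51 to 5.04 (adjusted p = 0.15). The shared estimate of the spread behind this p holds the wide WT values of Pdk4. Adm gave 1.27 ± 0.43 (adjusted p = 0.116), Ddit4 1.21 ± 0.58 (adjusted p = 0.269) and Vegfa -0.47 ± 0.27 (adjusted p = 0.357), each without overlap between groups. Leaving out WT IRI replicate 1, which is not in this comparison but in the shared spread, brought 8 members past the threshold, with 3252 of all 25947 genes. In a fit on the 6 KO arrays 7 members and 2442 of all genes passed. The fit on the 6 WT arrays called 2 members and 417 of all genes in WT.

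The 9 enzymes of the reversible steps and of lactate formation were all lower in KO IRI than in KO sham, by -0.43 to -0.06, with 0 of 9 past the test and all intervals within 2-fold. After quantile normalization 6 of the 9 were below 0, and with the mean of all kept probes 8 of the 9. The kept probes of Eno1 ranged from -0.06 to 0.20. The shared direction thus depends on the scaling and on the probe. Ldhb, the heart-type lactate dehydrogenase, was the largest of these at -0.43 ± 0.14 (adjusted p = 0.117), and passed without WT IRI replicate 1 (adjusted p = 0.022). In KO kidneys 8 of 14 proximal tubule markers were lower after IRI, with summed signals of 1320 to 1440 in KO IRI and 1900 to 2170 in KO sham. Of 9 neutrophil markers 2 were higher and 0 lower, with a median log2 fold change of 1.64 over the list. Their sums overlapped, at 42.3 to 74.2 in KO IRI and 58.7 to 77.4 in KO sham, where Cxcr2 and Mmp9 were below background. Of 8 tubule injury markers 4 were higher, and of 7 erythrocyte and 8 adipocyte markers 0 and 1. Their part in the members' values was not tested.

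**Figure D3:**
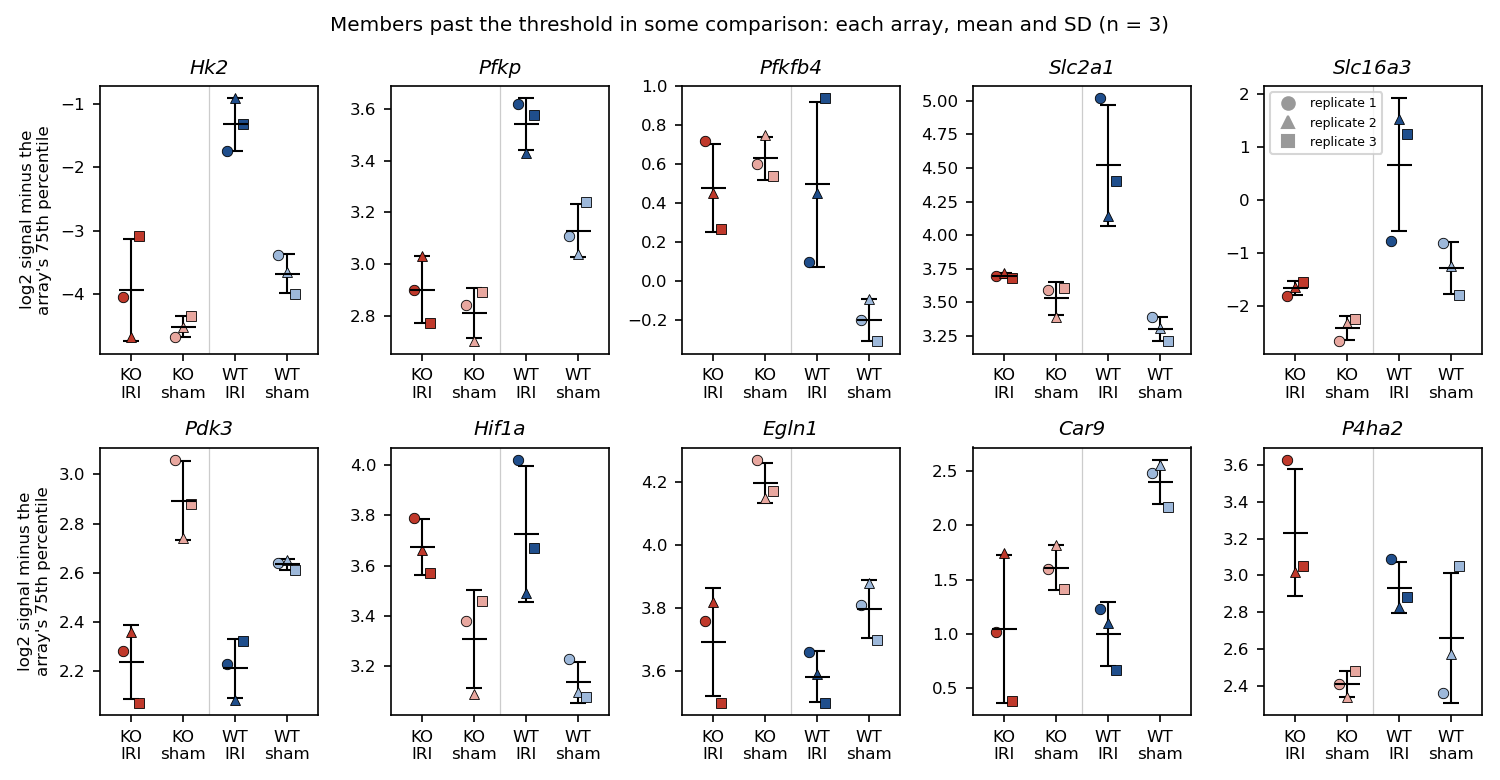
Level of the 10 members called in some comparison (log2 signal minus the 75th percentile of the array, y axis) on each array of the 4 groups (x axis), with symbols for the replicate number and bars for mean and SD (n = 3). Hk2, Pfkp, Slc2a1 and Slc16a3 are highest in WT IRI, where replicate 1 of Slc16a3 lies near the sham arrays, and Car9 is highest in WT sham.

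After IRI, 3 of 36 members were lower and 0 higher in KO than in WT kidneys, against 1.02% of all genes called lower and 0.910% called higher. Over all genes 236 of 501 calls were higher, and 67 of 332 with normexp background correction. The count of 3 was 1 without KO IRI replicate 2, KO IRI replicate 3 or WT IRI replicate 3. Calls over all genes then fell from 501 to 146, 367 and 245. The 3 members were Hk2, Pfkp and Slc16a3, and in each every KO IRI array lay below every WT IRI array, at the levels given above. Hk2 differed by -2.62 ± 0.36, 6.15-fold lower in KO IRI (adjusted p = 0.0101), and kept its call without any one array, at -3.05 to -2.25. In a fit on the 6 IRI arrays it was lost, as were all 3, while calls over all genes fell from 501 to 35. Pfkp differed by -0.64 ± 0.12, 1.56-fold lower (adjusted p = 0.0239), and was lost without KO IRI replicate 2, KO IRI replicate 3 or WT IRI replicate 3, at -0.71 to -0.58. Slc16a3 differed by -2.33 ± 0.50, 5.02-fold lower (adjusted p = 0.0485). It was called with all 12 arrays and without WT IRI replicate 1 (-3.05, adjusted p = 0.00344), and lost without any one of the other 11, at -2.38 to -1.90.

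Slc2a1 was 1.76-fold lower in KO IRI than in WT IRI without overlap, at -0.82 ± 0.19, and missed the threshold (adjusted p = 0.0625). It passed without WT IRI replicate 1 (-0.57, adjusted p = 0.039) or replicate 2 (-1.01, adjusted p = 0.0271). Pkm was also lower without overlap, at -0.50 ± 0.13 (adjusted p = 0.0855). Hif1a gave -0.05 ± 0.16, with an interval of -0.40 to 0.29, and the 9 enzymes of the reversible steps -0.20 to 0.12, with all intervals within 2-fold. Of the hypoxia targets, 0 of 9 passed, and they ranged from -0.87 for Ddit4 to 0.38 for Bnip3. Between these same groups 4 of 9 neutrophil markers were lower and 0 higher, with summed signals of 42.3 to 74.2 in KO IRI and 112 to 123 in WT IRI kidneys. None of the 9 was below background on all arrays of either group. No erythrocyte, adipocyte, tubule injury or tubule marker passed (0 of 7, 8, 8 and 14), although sums did not overlap for erythrocyte markers (26.2 to 74.3 in KO IRI and 86.5 to 156 in WT IRI) and for tubule injury markers (348 to 501 in KO IRI and 538 to 928 in WT IRI). Sums also did not overlap for endothelial markers (70.0 to 77.8 in KO IRI and 45.6 to 62.5 in WT IRI). Nor did those of macrophage and monocyte markers (23.1 to 27.8 and 29.4 to 104) or T and NK cell markers (1.66 to 1.95 and 1.97 to 2.80). No marker of these lists passed. Of the injury genes, Havcr1 differed by -3.34 ± 1.15 (adjusted p = 0.147) and Lcn2 by -1.30 ± 0.41 (adjusted p = 0.121). Their part was not tested, and genotype and slide cannot be told apart.

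In sham kidneys 1 of 36 members differed between KO and WT. That was Pfkfb4, against 5.12% of all genes called higher and 3.73% called lower. Over all genes 1329 of 2297 calls were higher, and 828 of 1921 under quantile normalization. The median of the members was 0.15 and that of all genes 0.12. Pfkfb4 read 0.60, 0.75 and 0.54 in KO sham kidneys, against -0.20, -0.09 and -0.31 in WT sham kidneys. The groups were well apart and narrow, at 0.83 ± 0.20 or 1.78-fold (adjusted p = 0.0333), and the call was lost without any one of the 6 sham arrays, at 0.77 to 0.88. The KO sham level of Pfkfb4 lay within the range of the WT IRI and KO IRI arrays, which ran from 0.10 to 0.94.

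Pdk4 had the largest difference, with -3.46 ± 1.02 between KO sham (0.77, -0.03 and 0.85) and WT sham (3.01, 3.01 and 5.94). All KO sham arrays were lower, with WT sham replicate 3 far above its group, and the difference missed the threshold (adjusted p = 0.0638). It passed without WT IRI replicate 1 (adjusted p = 0.0317) or replicate 2 (adjusted p = 0.0327). Groups did not overlap for most members in this comparison, with KO sham higher for some and lower for others. Among them were Hk2, Pfkp and Slc16a3, the genes called lower in KO IRI than in WT IRI. These were lower in KO sham without passing the test, and the lack of overlap does not set them apart. The differences were, for Hk2, -0.84 ± 0.36 (adjusted p = 0.189), for Pfkp, -0.32 ± 0.12 (adjusted p = 0.118, past the threshold in 4 of 21 alternatives) and, for Slc16a3, -1.13 ± 0.50 (adjusted p = 0.2, and 0.0135 without WT IRI replicate 1). Car9 differed by -0.79 ± 0.30 (adjusted p = 0.134) and Egln1 by 0.40 ± 0.12 (adjusted p = 0.0632, and 0.0341 without WT IRI replicate 1). Without that array 7 members and 4405 of all 25947 genes passed in sham kidneys.

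**Figure D4:**
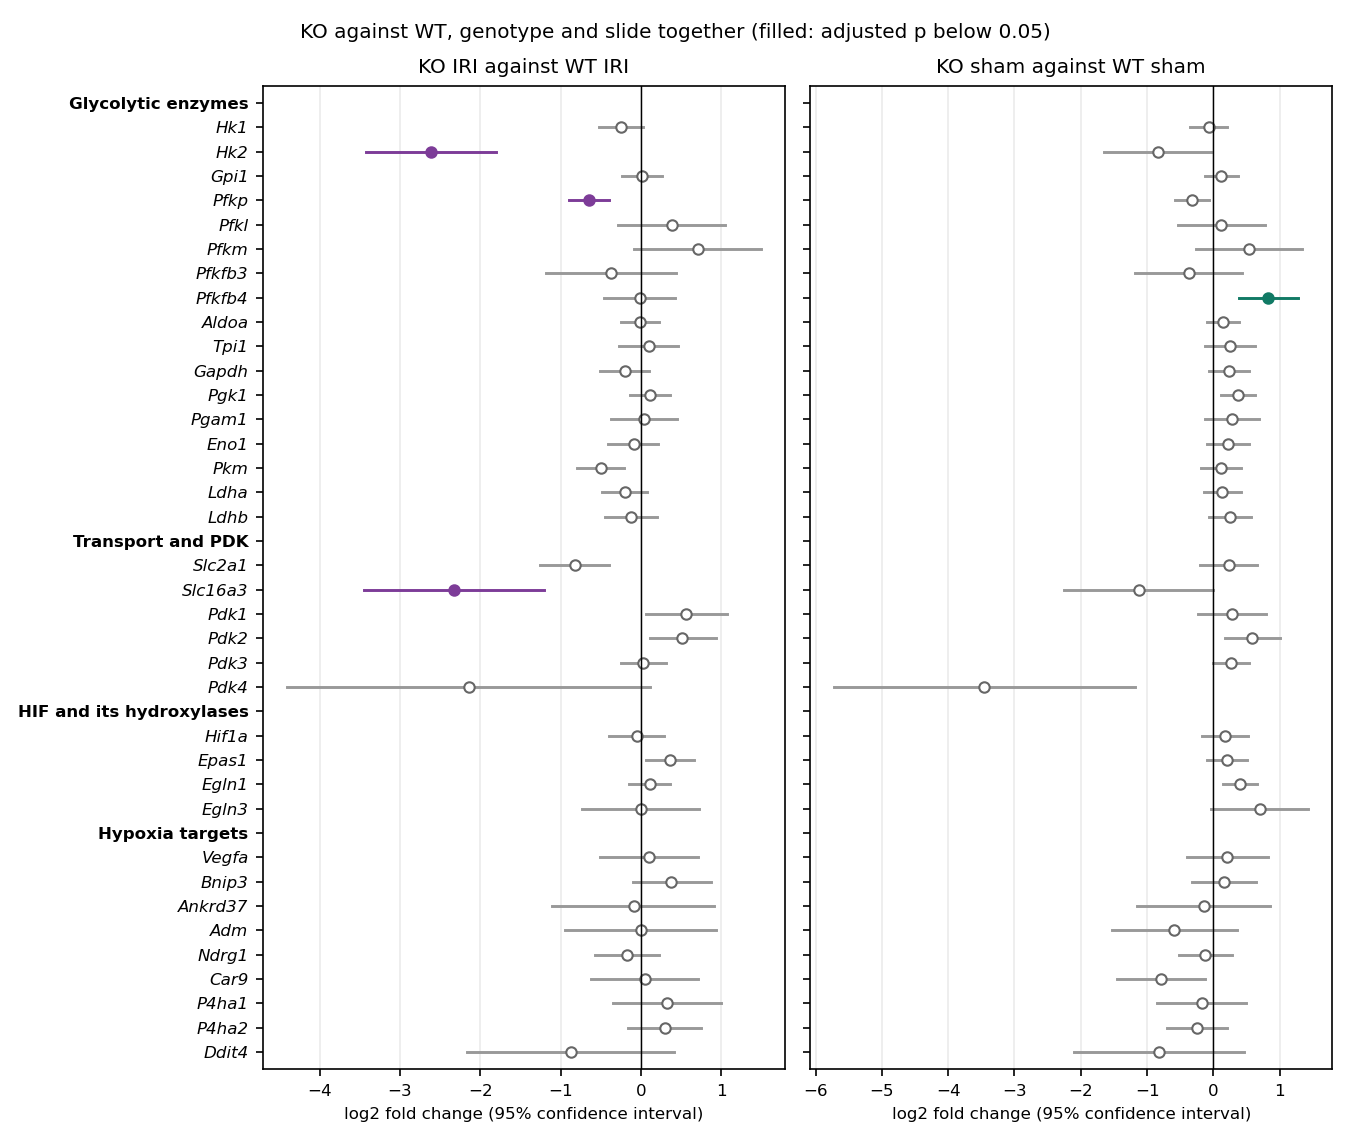
Log2 fold change of KO against WT (x axis) with its 95% confidence interval for the 36 tested members (y axis, by role), after IRI on the left and after sham surgery on the right; filled points passed the threshold, and genotype and slide coincide. Hk2 (-2.62) and Slc16a3 (-2.33) lie far to the left after IRI, and the wide bar of Pdk4 after sham surgery crosses no 0 although its point is not filled.

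Several genes have more than 1 probe, and for some the choice of probe mattered. The 37 genes had 85 probes, of which 78 were kept, and 17 genes had 1 kept probe. All 5 kept probes of Pfkp gave the direction of the probe used, at 0.27 to 0.69 for WT IRI against WT sham and -1.39 to -0.64 for KO IRI against WT IRI. The 4 kept probes of Pkm also gave a shared direction, at 0.38 to 1.29 and -1.20 to -0.35. The 3 of Hif1a were all higher in WT IRI than in WT sham, at 0.59 to 1.25. Against WT IRI, the 2 dimmer ones were lower in KO IRI, at -1.17 and -1.28, where the probe used gave -0.05. The probe that gave 1.25 and -1.17 lies on the strand opposite to the other Hif1a probes. For KO IRI against KO sham the 2 dimmer probes gave -0.12 and -0.47, where the probe used gave 0.36. The kept probes of Hk1, Pfkl, Eno1 and Pdk1 also disagreed in sign for KO IRI against WT IRI, at -0.59 to 1.15, -0.69 to 0.39, -0.80 to 0.19 and -0.52 to 0.57. Those of Gapdh, Gpi1, Pgk1, Ldhb, Pdk3, Vegfa and Car9 did so nearer to no change, none below -0.24 (Pgk1) or above 0.21 (Vegfa). The dimmer Pgk1 probe lies on the strand opposite to the probe used. Values for all these genes and for Hif1a hold for the brightest probe.

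**Figure D5:**
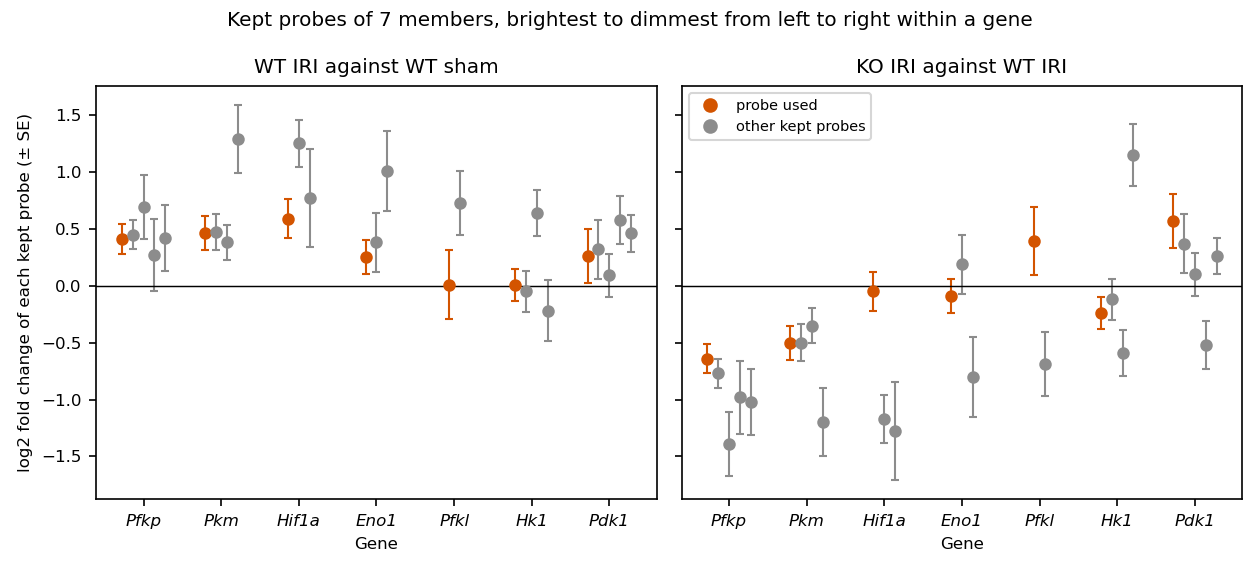
Log2 fold change ± SE (y axis) of every kept probe of 7 members (x axis), WT IRI against WT sham on the left and KO IRI against WT IRI on the right, with the probe used in orange. The probes of Pfkp and Pkm lie on one side of 0 in each panel, while those of Hif1a, Eno1, Pfkl, Hk1 and Pdk1 spread for KO IRI against WT IRI.

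A wider list of 76 other genes of glucose metabolism and hypoxia, chosen from textbook knowledge with results of these data known, had 75 tested. In WT IRI against WT sham 13 of the 75 were higher and 2 lower, beside the 6.08% and 5.90% of all genes. Among the larger rises were Hilpda, which coats lipid droplets (2.29 ± 0.31, adjusted p = 0.00323), the liver and red cell pyruvate kinase Pklr (2.00 ± 0.32, adjusted p = 0.0064) and the heme oxygenase Hmox1 (1.92 ± 0.51, adjusted p = 0.0385). The falls were the monocarboxylate transporter Slc16a7 (-1.65 ± 0.33, adjusted p = 0.0151) and the muscle phosphoglycerate mutase Pgam2 (-0.61 ± 0.16, adjusted p = 0.0335). Of 22 alternatives the call was lost in 1 each for Hilpda and Pklr, 10 for Hmox1, 3 for Slc16a7 and 8 for Pgam2. The count of 15 was 9 without WT sham replicate 1 or 2, with 861 and 846 calls over all genes. In KO IRI against KO sham 7 were higher and 1 lower, beside 2.10% and 4.05% of all genes. Hmox1 (2.25 ± 0.51, adjusted p = 0.0316) and Pklr (1.64 ± 0.32, adjusted p = 0.0166) rose here too, with Hif3a, a HIF alpha subunit (1.78 ± 0.42, adjusted p = 0.0364), while the mitochondrial pyruvate carrier Mpc2 fell (-0.44 ± 0.10, adjusted p = 0.0352). Here the call was lost in 5 for Hmox1, 4 for Pklr, 9 for Hif3a and 12 for Mpc2. The count of 8 was 1 without KO sham replicate 1 or 3, and 17 without WT IRI replicate 1. Calls over all genes were then 454, 510 and 3252.

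In KO IRI against WT IRI, 3 of the 75 were lower and 0 higher, beside 1.02% and 0.910% of all genes. They were Hilpda (-0.29, -0.40 and -0.22 in KO IRI, against 2.5, 0.97 and 1.57 in WT IRI, -1.99 ± 0.31, adjusted p = 0.0135), the glucose transporter Slc2a3 (-1.64 ± 0.36, adjusted p = 0.0485) and the neuronal enolase Eno2 (-0.67 ± 0.13, adjusted p = 0.0367). The call was lost in 2 of 21 alternatives for Hilpda, 14 for Slc2a3 and 11 for Eno2. Each was without overlap between groups, and the count of 3 was 0 without KO IRI replicate 2 and 6 without WT IRI replicate 2. Calls over all genes were then 146 and 971, against 501 with all arrays. In KO sham against WT sham 2 were higher and 4 lower, beside 5.12% and 3.73% of all genes. Pfkfb2 was among the higher (0.45 ± 0.11, adjusted p = 0.0389, lost in 12 of 21 alternatives). The lower were the myeloid hexokinase Hk3 (-2.44 ± 0.33, adjusted p = 0.00401), the lipase inhibitor Angptl4 (-2.12 ± 0.52, adjusted p = 0.0332), Hif3a (-1.97 ± 0.42, adjusted p = 0.0204) and Slc2a3 (-1.43 ± 0.36, adjusted p = 0.0354). Of these 21 alternatives the call was lost in 0 for Hk3, 6 for Angptl4, 4 for Hif3a and 9 for Slc2a3. In the same comparison 5 of 10 macrophage and monocyte markers, 5 of 10 T and NK cell markers, 3 of 9 neutrophil markers and 2 of 8 tubule injury markers were lower. Tubule injury sums were 205 to 224 in KO sham and 267 to 393 in WT sham, and Lcn2 was lower (-1.67 ± 0.41, adjusted p = 0.0334). Of 14 proximal tubule markers 2 were higher, with sums of 1900 to 2170 in KO sham and 1550 to 1730 in WT sham. Their part in these values, and in those of the members in sham kidneys, was not tested. The count of 6 was 1 without any one of the KO sham arrays and 16 without WT IRI replicate 1. Over all genes, 649, 1515 and 788 were called without KO sham replicates 1, 2 and 3, and 4405 without WT IRI replicate 1.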

How the data were processed

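Per the file headers, the deposited scanner files hold spot intensity from Agilent Feature Extraction 10.7.1.1, background-subtracted by the scanner software. The authors also deposited a table of log2 values (median 5.71 in every column), for which the submitters' processing notes name limma, with the normalization not given in the sources used here. Its lowest correlation with the log2 processed signal was 0.9998.

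Each array had 62976 spots. Control spots were left out, spots of a probe averaged, and the 75th percentile of the array was subtracted from the log2 processed signal. Probes well above background on at least 3 of 12 arrays were kept (39449), and the brightest one stood for its gene. Symbols came from RefSeq by accession for 32994 probes, and 23611 kept the name in the file. Probe coordinates are on mm9 and promoters on GRCm38.p6. limma 3.58.1 in R 4.3.3 was fitted with 1 coefficient per group over all 12 arrays (8 residual degrees of freedom), and was tested on simulated data. The number of arrays limits the precision. Same-numbered samples did not deviate together (correlations of -0.267 to 0.151), so no block was used. Alternatives were background correction, scaling, the filter, the probe, the samples fitted, blocks, array weights and each array left out. Members and lists were chosen with earlier results of these data known. Every member is accounted for, those called are given on every array, and of the wider list up to 4 rises and 4 falls per comparison are named, except that some are not reported here.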

Additional observations from a re-analysis of the deposited data

How the results depend on the processing

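Over 22 alternatives the members gave 3852 gene values. Of these, 3522 kept their direction and their side of the threshold, 90 lost the threshold and 94 gained it. Another 146 changed sign without a call in either fit, and 0 called values changed sign. The numbers of members called were 6 in the WT response to IRI, 3 in the KO response, 3 for KO IRI against WT IRI, 1 for KO sham against WT sham and 0 for the difference of the responses. No filter on dim probes gave 3 in the WT response, 1 in the KO response and 0 for KO sham against WT sham. Calls over all genes were then 2233, 1149 and 1620, against 3109, 1598 and 2297 in the main fit. A fit on only the groups compared gave 2 in the WT response, 7 in the KO response, 0 for KO IRI against WT IRI and 9 for KO sham against WT sham. In the same order, it called 417, 2442, 35 and 4042 of all genes. Array weights gave 16, 11, 5 and 15 for these comparisons and 4 for the difference of the responses, while they called 8922, 5756, 2034, 9669 and 1353 of all 25947 genes. For KO sham against WT sham, normexp gave 4, and 2 was the count with quantile normalization and with the authors' table. Over all genes these 3 settings called 2107, 1921 and 1929. With the replicate number as a block, KO sham against WT sham gave 0 and KO IRI against WT IRI 1. Over all genes that block gave 1782 and 279 calls. Leaving out 1 array at a time gave 2 to 8 in the WT response, 0 to 8 in the KO response, 1 to 4 for KO IRI against WT IRI, 0 to 7 for KO sham against WT sham and 0 to 0 for the difference of the responses. Over all genes the ranges were 846 to 4675, 454 to 3252, 146 to 971, 649 to 4405 and 4 to 148. The cause was not tested. With slide as a block, comparisons within a genotype could be fitted and KO against WT could not. Because slide and genotype coincide, that fit could only repeat the main fit, with 3109, 1598 and 18 calls over all genes. Its values are among the 3522 and are no check.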

Other observations

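Across the 36 members, KO sham replicate 1 was the highest of the 12 arrays for 13 genes and the lowest for 1. The 9 enzymes of the reversible steps and of lactate formation were all higher in KO sham than in WT sham, at 0.12 to 0.37, with 0 of 9 past the test. Under quantile normalization 2 of them were below 0. Pgk1, phosphoglycerate kinase, had the largest of these differences and passed without WT IRI replicate 1 (adjusted p = 0.0342). The set was put together after its values were seen.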
